A study of Rattus norvegicus with 15 samples.

Results

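Integrins are the receptors by which cells hold on to the matrix around them or to other cells, and each is a heterodimer of an alpha and a beta subunit. Laminins are heterotrimers of an alpha, a beta and a gamma chain that polymerize into the sheet of the basement membrane, on which prostate epithelium, muscle and vessels rest. The alpha6-beta4 integrin ties basal epithelial cells to laminin at hemidesmosomes, while the beta2 integrins are known as adhesion receptors of leukocytes. Subunits and chains act only in partnership, so a shared member such as Itgb1 or Lamc1 enters many receptors or trimers.

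The genes described are the integrin subunit and laminin chain genes of the rat, chosen by name: 18 integrin alpha genes, 8 integrin beta genes and 11 laminin genes, 37 of the 22436 genes in the expression table. RNA-seq was made from prostate tissue of SD rats in a study of low-intensity pulsed ultrasound (LIPUS) in a model of chronic prostatitis with pelvic pain. The 5 Control samples carry the treatment label No, as do the 5 Model samples of the prostatitis model, for which the labels give no inducing agent, age or time. The 5 LIPUS samples were treated with ultrasound for 4 weeks at an intensity given as 1.0 W/cm2 in the titles and 1.5 W/cm2 in the treatment field. Samples carry the numbers 6 to 10 in each group, and whether each is an animal of its own is not in the labels. The p-values therefore reflect variation among libraries that could be technical. In bulk tissue, fewer cells of a type and less RNA per cell cannot be told apart.

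Levels are given as scaled FPKM: read fragments relative to gene length and library size, as deposited, divided by a median-of-ratios factor per library set so that the Control libraries centre on 1. The libraries held 29675962 to 36402094 reads each. The 13 mitochondrially encoded genes took 3.75 to 4.69% of reads in Control, 23.5 to 43.5% in Model and 43.0 to 83.3% in LIPUS, which lowers all other values as deposited. The median log2 change over the 12490 tested genes from Control to Model was -0.90 as deposited and -0.16 after scaling, and that from Model to LIPUS was -0.60 and -0.03. Scaling to nuclear-encoded FPKM, which takes out the mitochondrial share alone, left these medians at -0.68 and 0.21. The source of the shift that remained from Control to Model was not tested. Model library 7 stood apart from the other Model libraries: its log2 ratio of ventral to dorsolateral prostate secretory genes was 7.76, against -9.25 to -2.77 in the other 4, 1.22 to 5.88 in Control and -0.71 to 4.46 in LIPUS. On this measure the other 4 Model libraries lay below all Control and LIPUS libraries and Model library 7 above them. A fit with this ratio as a covariate therefore compares Model with the other groups by extrapolation, and its slope leans on library 7. Where leaving out library 7 changed a call or a direction, the value without it is given. A gene was tested if it exceeded 0.5 FPKM in at least 5 of the 15 libraries, and was called at an adjusted p under 0.05 (limma, with Benjamini-Hochberg adjustment over the 12490 genes).

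In Control prostate Itgb1, the beta subunit shared by the largest group of integrins, stood at 79.0 ± 12.9 scaled FPKM (SD, n = 5), above every other member. It was followed by Itgb5, a beta partner of alphaV, at 27.8 ± 3.23. The laminin chains that came next were Lamc1 at 19.3 ± 4.29, Lamb1 at 17.4 ± 11.7 and Lamb2 at 11.0 ± 2.85. Lamb1 did not separate from the other chains beyond its spread, while Lamc1 was above Lamb2 in every Control library. Itga6 (10.4 ± 1.36) and Lama4 (10.4 ± 2.85) were level with Lamb2. Among leukocyte genes, Itgae at 1.71 ± 0.201 and Itgb2 at 1.15 ± 0.151 were the most abundant. These levels are per gene length and can be set beside each other.

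Of the 37 members 26 were tested. The filter favoured genes that were high in Control: 13 of the 26 exceeded 0.5 FPKM in fewer than 5 libraries outside Control, and 6 in none, so the counts below describe the tested genes and not the family. The 11 untested genes were Itga10, Itga2, Itga2b, Itga4, Itga9, Itgad, Itgax, Itgb3, Itgb7, Lama1 and Lama3, and their scaled FPKM reached at most 1.25, in Itga2. With no filter on low values, 2 of these 11 were called lower in Model than in Control, namely Itgb3, the beta subunit of the platelet fibrinogen receptor and of the alphaV-beta3 integrin, and Lama3, the alpha chain of epithelial laminin-332. Itgb3 had 301 reads over the 5 Control libraries, 42 over Model, of which 38 were in library 7, and 14 over LIPUS, all in library 8. Lama3 had 585 reads over Control, 38 over Model, of which 34 were in library 8, and 68 over LIPUS, all in library 9. Each sum outside Control thus rests on 1 library. In both genes 3 of the 5 Model libraries held no read, and 0 reads allow up to 3, a limit that covers counting error only.

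From Control to Model, 12 tested members fell and 1 rose. Over all tested genes 19.8% were called lower and 15.1% higher, which are the shares to set the 12 and the 1 of 26 against. The median log2 change of the 26 was -1.61, against -0.16 over all tested genes. Since the filter favoured genes that were high in Control, this median describes the genes that passed and supports nothing about the family. With no filter it was -1.27 over all 37 members against -0.10 over all genes, and over the 8 members above 1 FPKM in at least 10 libraries it was -0.5 against 0.03. Under other scalings of the 26 it was -2.15 as deposited, -2.0 with nuclear-encoded FPKM and -0.76 after quantile normalization. The medians over all tested genes in these settings were -0.9, -0.68 and 0.05. Groups did not overlap in 12 members that were lower and 1 that was higher in Model, where 18.3% and 14.1% of all tested genes were apart in those directions. As deposited, 19 members were lower and 0 higher, against 43.1% lower and 2.95% higher over all tested genes, and the added members were Itga1, Itga3, Itga7, Itgam, Lamb1, Lamb3 and Lamc3. The leukocyte alpha subunit Itgae was the member that rose, and its call is lost as deposited (adjusted p = 0.329, limma). Without Model library 7, 11 members were lower and 1 higher, against 25.5% and 20.9% of all genes. With the ventral to dorsolateral ratio as a covariate, 20 were lower and 0 higher, against 20.0% and 13.1%. No-filter counts were 13 lower and 1 higher of 37 members, against 12.8% and 8.16% of 22436 genes.

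**Figure D1:**
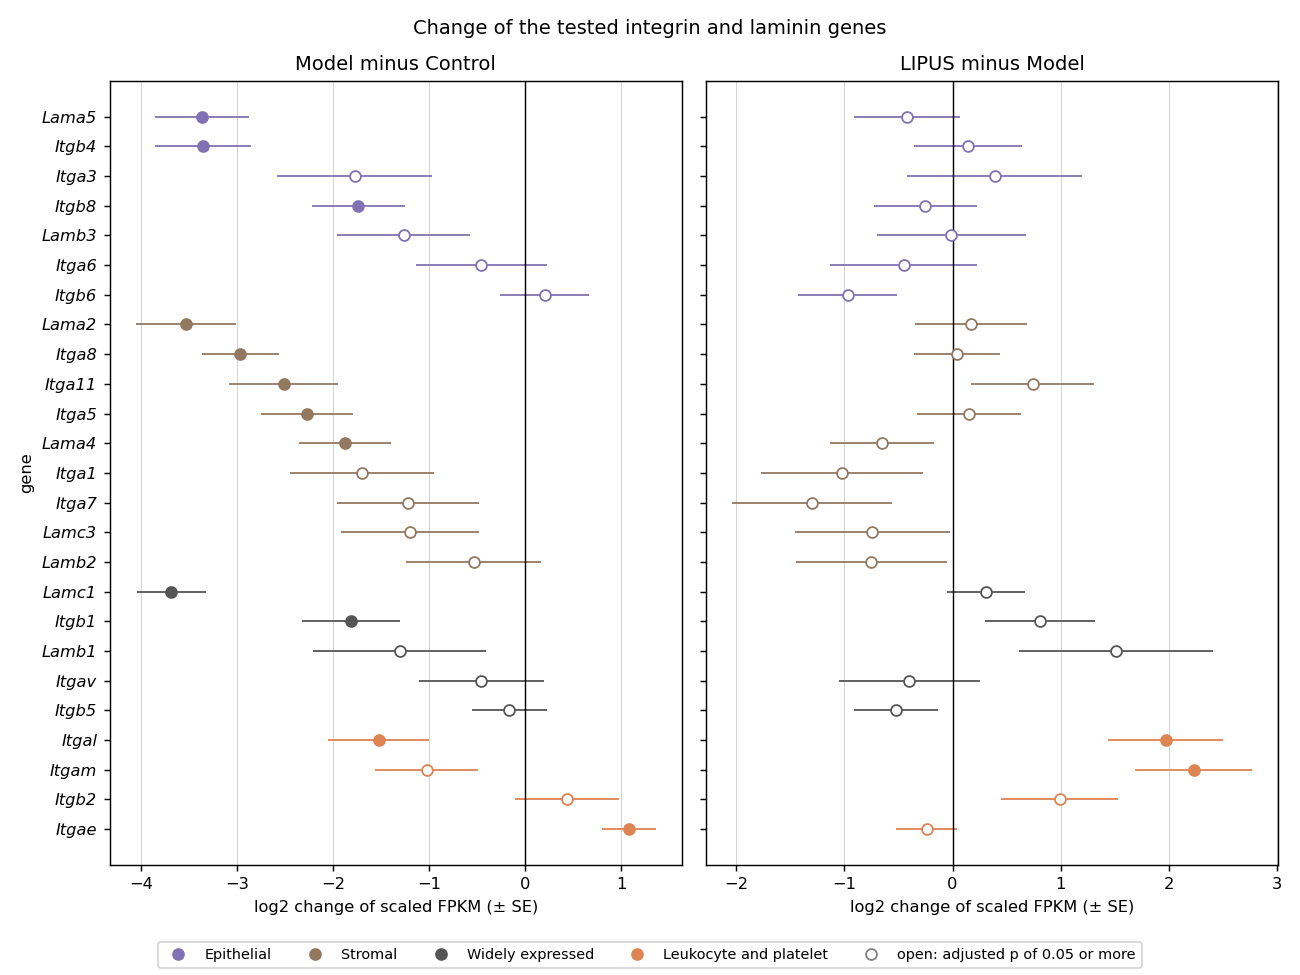
Log2 change of scaled FPKM with its standard error for 25 of the 26 tested integrin and laminin genes, Model minus Control on the left and LIPUS minus Model on the right, from limma over 15 libraries. Filled points passed an adjusted p under 0.05, and colours give the class of each gene: on the left 11 filled points lie below 0 and Itgae above it, and on the right only Itgal and Itgam are filled.

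Gene length went with these changes. Across the 12490 tested genes the Spearman correlation between length and the log2 change from Control to Model was -0.32, and across the 26 members, whose lengths ran from 3243 bases in Itgb2 to 11307 in Lama5, it was -0.53. From Control to LIPUS the values were -0.38 and -0.69, and from Model to LIPUS -0.04 and -0.27. Genes are not independent replicates and all points share the same libraries, so these are descriptions. The part of length in the changes below was not tested.

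The 250 bases upstream of the start of 5 genes are shown, from RefSeq on build GRCr8: Lamc1, Lama5 and Itgb1 because they fell in Model, Lamb1 because it is a trimer partner of Lamc1 that did not pass the test, and Itgae because it rose. They were chosen after the values had been seen. Those that fell were not picked by smallest p, so they do not stand for the 9 members that fell and have an entry. Each is written 5′ to 3′ in the direction of the gene, with capitals marking the GC box, GGGCGG or its reverse complement CCGCCC, the letters that the transcription factor Sp1 is known to bind.
Lamc1, chr13:68051987-68052236, minus strand: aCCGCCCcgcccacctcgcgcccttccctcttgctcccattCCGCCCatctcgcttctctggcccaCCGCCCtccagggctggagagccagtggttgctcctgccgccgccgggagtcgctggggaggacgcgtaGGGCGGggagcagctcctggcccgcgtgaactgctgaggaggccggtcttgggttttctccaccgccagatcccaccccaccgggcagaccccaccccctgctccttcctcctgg
Lama5, chr3:187695975-187696224, minus strand: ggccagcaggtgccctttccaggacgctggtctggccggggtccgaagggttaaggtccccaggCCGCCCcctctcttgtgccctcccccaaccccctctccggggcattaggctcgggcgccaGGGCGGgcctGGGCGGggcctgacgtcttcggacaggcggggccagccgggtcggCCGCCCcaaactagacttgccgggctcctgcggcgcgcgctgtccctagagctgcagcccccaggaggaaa
Itgb1, chr19:73602027-73602276, plus strand: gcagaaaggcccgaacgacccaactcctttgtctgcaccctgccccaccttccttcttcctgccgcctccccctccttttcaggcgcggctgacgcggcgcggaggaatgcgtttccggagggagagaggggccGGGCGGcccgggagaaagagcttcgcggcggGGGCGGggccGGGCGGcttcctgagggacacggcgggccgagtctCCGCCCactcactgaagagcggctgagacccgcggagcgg
Lamb1, chr6:53562846-53563095, plus strand: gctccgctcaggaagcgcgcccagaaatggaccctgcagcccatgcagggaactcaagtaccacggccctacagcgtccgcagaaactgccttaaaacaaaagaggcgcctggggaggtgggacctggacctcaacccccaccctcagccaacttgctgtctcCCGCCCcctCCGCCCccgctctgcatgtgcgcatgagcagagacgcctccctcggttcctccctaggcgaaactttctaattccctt
Itgae, chr10:58203118-58203367, plus strand: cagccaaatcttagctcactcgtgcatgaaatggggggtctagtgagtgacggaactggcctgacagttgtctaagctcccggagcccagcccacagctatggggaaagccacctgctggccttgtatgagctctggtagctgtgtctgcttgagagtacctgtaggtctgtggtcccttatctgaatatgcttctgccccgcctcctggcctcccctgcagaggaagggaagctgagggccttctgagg
Lamc1, Lama5 and Itgb1 each hold 4 copies, counting both strands and only copies that do not overlap, Lamb1 holds 2 and Itgae 0. In Lamc1 a further copy overlaps the end of the first marked one and is neither marked nor counted. A window with at least 1 copy was found in 30.5% of 33469 RefSeq promoters of this length, and at least 4 copies in 3.09%. Of the 28 members with an entry in the promoter table, 14 held a copy: 7 of the 9 that fell in Model and have an entry, and 5 of 10 among the other tested members. These matches describe letters in a window and say nothing of binding.

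Among the 10 epithelial genes 8 were tested; 4 fell in Model, 0 rose, and the median log2 change was -1.76. Lama5, the alpha chain of laminin-511 in mature epithelial basement membranes, stood at 1.84, 2.31, 2.35, 1.99 and 2.16 scaled FPKM in Control 6 to 10. It was at 0.238, 0, 0.0609, 0.176 and 0.200 in Model 6 to 10, and at 0, 0.243, 0, 0.209 and 0 in LIPUS 6 to 10. Neither Model nor LIPUS overlapped Control, and 1 Model library and 3 LIPUS libraries held no Lama5 read. Its log2 change from Control to Model was -3.37 (SE 0.49, adjusted p = 1.24e-04), and -3.72 as deposited. All values by sample below follow the same order, 6 to 10.

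Itgb4, the hemidesmosomal beta4 subunit, had scaled FPKM of 6.03, 7.04, 5.37, 7.91 and 6.46 in Control. In Model it was at 0.741, 0.329, 1.44, 0.186 and 0.590, and in LIPUS at 0.279, 0.286, 1.34, 1.53 and 0.423. Every Model and every LIPUS library lay below the lowest Control library, with a log2 change of -3.36 from Control to Model (SE 0.50, adjusted p = 1.57e-04; -3.97 as deposited). Its only alpha partner, Itga6, did not follow: 9.60, 12.5, 8.86, 10.7 and 10.6 in Control against 13, 0.581, 12, 18.8 and 12.5 in Model. Model library 7 was far below Control and the other 4 Model libraries lay within or above the Control range. The log2 change of Itga6 was -0.46 (SE 0.68, adjusted p = 0.633), and it was 0.41 without Model library 7. In LIPUS, Itga6 stood at 3.07, 7.39, 5.37, 7.08 and 5.68, below all Control libraries, yet the log2 change from Control of -0.91 (SE 0.68) did not pass (adjusted p = 0.353). Without Model library 7, which enters the shared estimate of the spread, that p was 0.00646.

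Itgb8, the beta subunit of the alphaV-beta8 integrin, a receptor known to activate TGF-beta, stood at 0.961, 1.65, 0.969, 1.25 and 1.64 scaled FPKM in Control. Model libraries were at 0.627, 0.0219, 0.255, 0.764 and 0.315, and LIPUS libraries at 0.292, 0.253, 0.138, 0.379 and 0.198. Both groups lay apart from Control, and the log2 change to Model was -1.74 (SE 0.48, adjusted p = 0.0117). Among the other tested epithelial genes 3 more did not pass: Itga3, an alpha subunit of laminin-binding integrins, had a log2 change of -1.78 (adjusted p = 0.102), Lamb3, the beta chain of laminin-332, of -1.27 (0.170), and Itgb6, the epithelial TGF-beta-activating subunit, of 0.20 (0.766). Both Itga3 and Lamb3 passed as deposited, with adjusted p of 0.00576 and 0.00894.

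**Figure D2:**
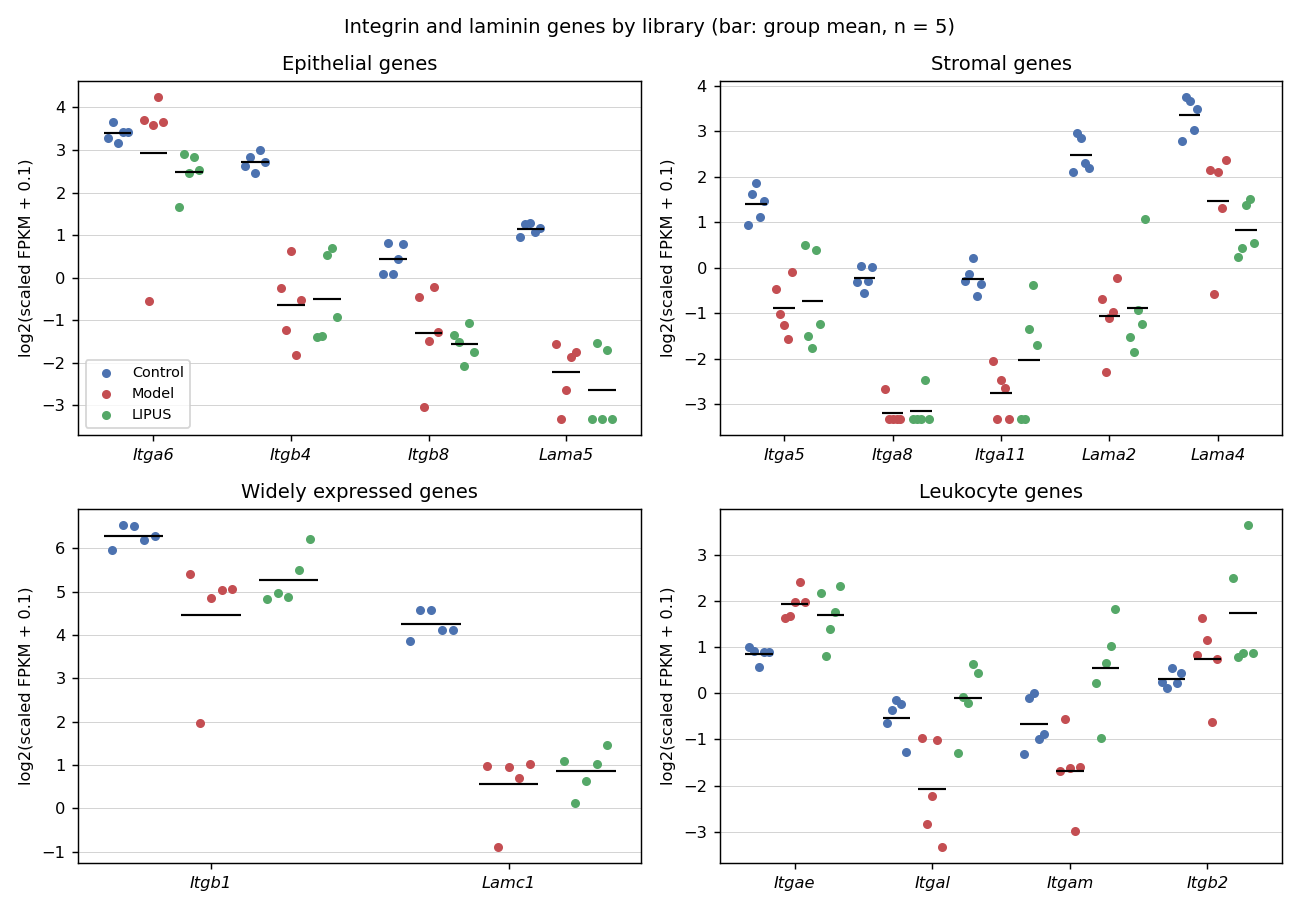
Log2(scaled FPKM + 0.1) of 15 integrin and laminin genes in each library, Control in blue, Model in red and LIPUS in green, by gene class. Bars are group means (n = 5): for Lama5, Itgb4, Itga8 and Lamc1 all Model and LIPUS points lie below the Control points, for Itga6 and Itgb1 Model library 7 lies far below the rest, and for Itgae all Model points lie above Control.

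Epithelial markers moved in part beside these genes. From Control to Model 2 of 5 luminal markers rose (log2 change 1.26 for Krt18 and 0.85 for Krt8) and 2 of 4 basal markers fell (log2 change -2.67 for Krt5 and -2.14 for Krt14). Cdh1 of the luminal list, E-cadherin, had a change of -1.21 that did not pass (adjusted p = 0.105). In LIPUS against Model, Krt5 and Krt14 rose, by 1.44 and 2.25 on the log2 scale (adjusted p of 0.0347 and 0.0413), and Krt18 had a change of -0.53 (0.0405). With only the Model and LIPUS libraries in the fit, 1 of 12490 genes was called. These markers were not followed through the alternatives. The summed scaled FPKM of the luminal markers ran from 428 to 478 in Control, 458 to 908 in Model and 461 to 669 in LIPUS. That of the basal markers ran from 55.3 to 72.5 in Control, 6.79 to 77.1 in Model and 22.7 to 193 in LIPUS. No marker of either list was at 0 in all libraries of a group. The part of these markers in the falls of Itgb4 and Lama5 was not tested.

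Of the 12 stromal genes, made by fibroblasts, muscle or vessels, 9 were tested; 5 fell in Model, 0 rose, and the median log2 change was -1.88. Lama2, the alpha chain of the laminin of muscle and nerve, stood at 4.24, 7.69, 7.11, 4.84 and 4.52 scaled FPKM in Control. It was at 0.520, 0.104, 0.368, 0.412 and 0.753 in Model and at 0.252, 0.180, 0.424, 0.326 and 2.01 in LIPUS. No library of either group reached the Control range, and LIPUS library 10 was the highest outside it. The log2 change to Model was -3.54 (SE 0.52, adjusted p = 1.30e-04; -4.11 as deposited). Lama4, the alpha chain of vessel laminins, fell less, from 6.86, 13.4, 12.7, 8.14 and 11.2 in Control to 4.37, 0.573, 4.19, 2.39 and 5.11 in Model and 1.09, 1.26, 2.51, 2.78 and 1.36 in LIPUS. Both groups were apart from Control, with log2 changes from it of -1.88 (SE 0.48, adjusted p = 0.00765) in Model and -2.52 (SE 0.48, adjusted p = 0.00165) in LIPUS.

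Itga8, the alpha subunit of the nephronectin receptor in smooth muscle and mesenchyme, stood at 0.708, 0.926, 0.580, 0.721 and 0.922 scaled FPKM in Control, from 131 to 191 reads a library. In Model it was found in library 6 alone, at 0.0594 from 7 reads, and in LIPUS in library 9 alone, at 0.0808 from 6 reads. The fitted log2 change of -2.97 to Model (SE 0.40, adjusted p = 6.67e-05) depends on the pseudocount of 0.1, since 4 of the 5 libraries held no read. Itga5, the alpha subunit of the fibronectin receptor, went from 1.81, 2.98, 3.57, 2.09 and 2.69 in Control to 0.629, 0.397, 0.318, 0.241 and 0.838 in Model. LIPUS values were 1.31, 0.253, 0.195, 1.22 and 0.326, and neither group overlapped Control. The log2 change to Model was -2.28 (SE 0.48, adjusted p = 0.00204).

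Itga11, a collagen-binding alpha subunit of fibroblasts, had 0.719, 0.807, 1.07, 0.553 and 0.679 scaled FPKM in Control. Model libraries were at 0.143, 0, 0.0825, 0.0597 and 0, and LIPUS libraries at 0, 0, 0.295, 0.667 and 0.208. Model lay apart from Control while LIPUS library 9 reached into the Control range. Its log2 change to Model was -2.52 (SE 0.57, adjusted p = 0.00325), and the call was lost after quantile normalization (0.109), as was that of Itgb8 (0.0811). The other 4 tested stromal genes did not pass: the log2 changes were -1.70 for the collagen receptor subunit Itga1, -1.22 for the muscle laminin receptor subunit Itga7, -1.2 for the gamma3 chain Lamc3 and -0.54 for the beta2 chain Lamb2, with adjusted p of 0.0923, 0.221, 0.213 and 0.587. Without Model library 7 the change of Lamb2 turned to 0.33 (adjusted p = 0.426) and that of Itga1 was -0.91 (0.165). Itga1 did not overlap between the groups, with 3.2 to 7.04 in Control and 0.0829 to 3.17 in Model.

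Some stromal markers were lower as well. From Control to Model 3 of 5 fibroblast markers fell, among them Col1a1 (log2 change -5.87) and Pdgfra (-2.04). Of the smooth muscle markers 2 of 5 fell, Acta2 (-3.63) and Tagln (-1.67), and of the endothelial markers 3 of 5, Cdh5 (-3.18), Pecam1 (-1.75) and Kdr (-1.94). The other members of these 3 lists did not pass, and Des of the smooth muscle list went the other way, from 62.6 ± 19.7 to 207 ± 128 scaled FPKM (log2 change 1.08, adjusted p = 0.323). Summed scaled FPKM of the fibroblast list ran from 491 to 810 in Control, 84.1 to 245 in Model and 107 to 727 in LIPUS. The smooth muscle list ran from 1020 to 2450, 123 to 1050 and 299 to 1410, and the endothelial list from 16.3 to 29.6, 1.2 to 13.4 and 3.26 to 5.60. No member of these 3 lists was at 0 throughout a group, and Model library 7 gave the lowest sum of all 15 in each. The part of these cell types in the falls of stromal integrins and laminins was not tested.

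The widely expressed genes are the shared partners, and 2 of the 5 fell, with 0 higher and a median log2 change of -1.31. Lamc1, the gamma1 chain found in most laminin trimers, stood at 14.4, 23.7, 23.9, 17.2 and 17.2 scaled FPKM in Control. It was at 1.87, 0.442, 1.84, 1.53 and 1.94 in Model, and at 2.05, 0.984, 1.44, 1.94 and 2.64 in LIPUS. The gap between Control and the other groups was wider than any spread within a group, and the log2 change to Model of -3.69 (SE 0.36, adjusted p = 9.75e-06; -4.40 as deposited) had the smallest p of the 26 members.

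Itgb1 went from 61.8, 92.9, 90.5, 72.7 and 77.1 scaled FPKM in Control to 42.6, 3.83, 28.9, 32.5 and 33.5 in Model. All 5 Model libraries lay below Control, library 7 by far the most. Its log2 change was -1.82 (SE 0.51, adjusted p = 0.0127), and -1.2 without library 7 (adjusted p = 0.00139). In LIPUS it stood at 28.2, 31.2, 29.3, 45.1 and 74.1, so that LIPUS library 10 alone reached the Control range after scaling. As deposited Itgb1 was at 13.3 in that library, against 60.0 to 96.2 in Control. Itgav, the alphaV subunit, Itgb5 and Lamb1, the beta1 laminin chain, did not pass, with log2 changes to Model of -0.46, -0.17 and -1.31 and adjusted p of 0.619, 0.771 and 0.284. Without Model library 7, where each of these 3 was at its lowest of the group, the changes were 0.35, 0.29 and -0.25. With the ventral to dorsolateral ratio as a covariate all 3 were called lower (adjusted p of 0.00311, 0.0335 and 8.79e-04), as were Itga6 (2.02e-04) and Lamb2 (0.00318). The slope behind these calls leans on Model library 7, without which Itga6 and Lamb2 had changes of 0.41 and 0.33.

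**Figure D3:**
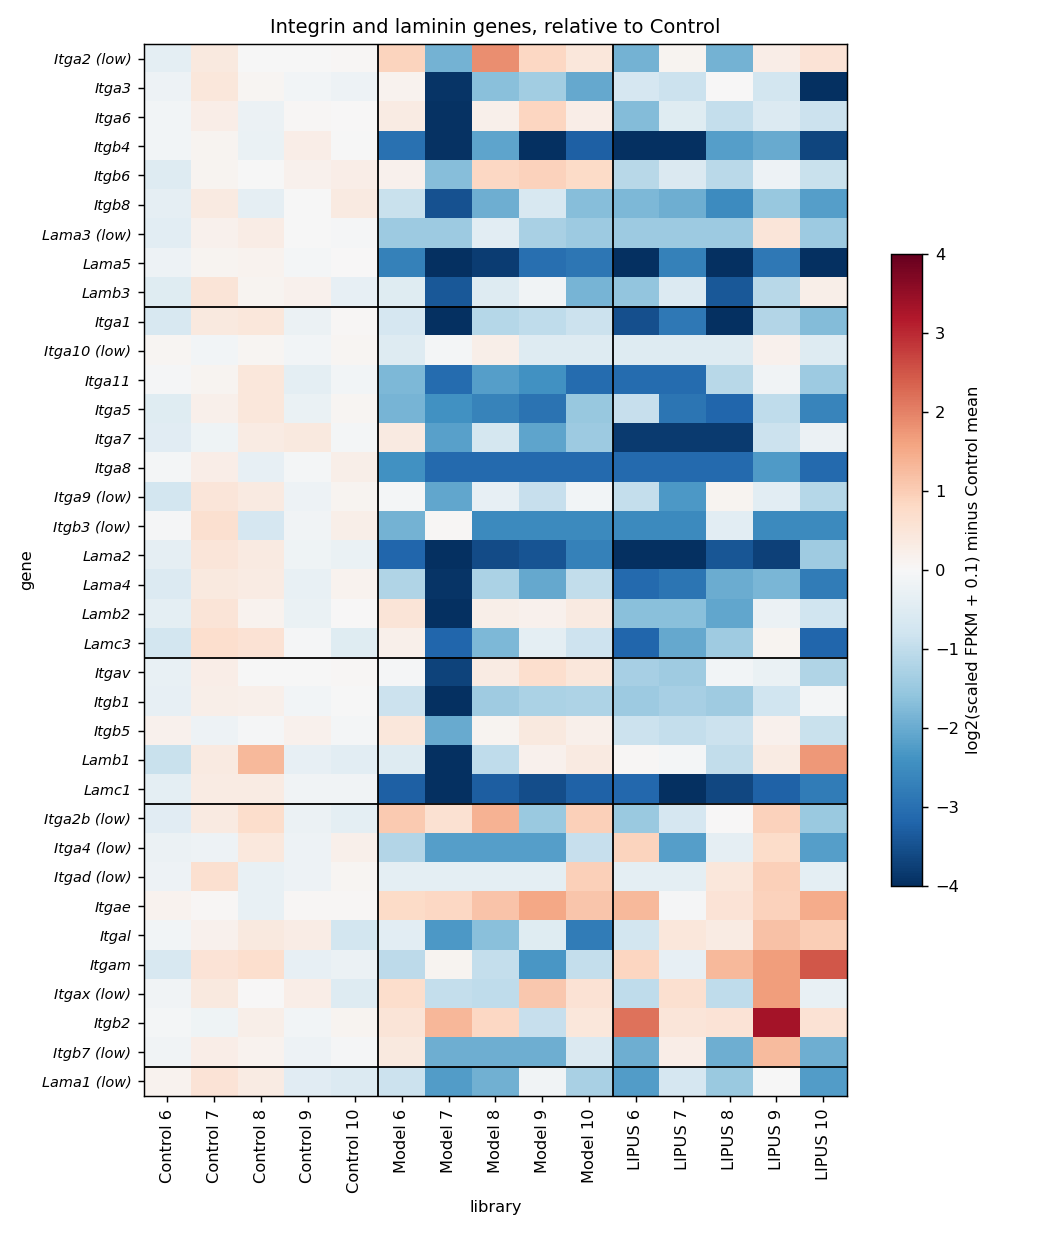
Log2(scaled FPKM + 0.1) minus the Control mean for 36 of the 37 integrin and laminin genes (rows, grouped by class, low genes that were not tested marked) in the 15 libraries (columns), with colours limited to 4 in either direction. Lamc1, Itgb4, Lama5 and Lama2 are blue in all Model and LIPUS columns, Model 7 is blue in most rows, and Itgae is red in all Model columns.

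Because 2 genes of the same library share its depth and scaling, ratios between members do not depend on the scaling. They were chosen after the values had been seen and are descriptions. The log2 ratio of Itga6 to Itgb4 was 0.44 to 0.82 in Control, with a median of 0.71, and had medians of 4.13 in Model and 3.46 in LIPUS. LIPUS lay wholly above Control at 2.0 to 4.69, while Model library 7, at 0.82, equalled the highest Control library and the other 4 Model libraries ran from 3.06 to 6.66. The ratio of Lamb2 to Lamc1, partners in several laminins, was -1.02 to -0.63 in Control, 0.36 to 3.05 in Model and 0.68 to 2.22 in LIPUS, so both groups were apart from Control. Lamb1 to Lamc1 had medians of -0.54, 2.48 and 3.27 in the 3 groups; LIPUS was apart from Control, while Model library 7, at -0.97, lay below it. The beta chains thus outnumbered the gamma1 chain per length in 9 of the 10 Model and LIPUS libraries for Lamb1 and in 10 of 10 for Lamb2.

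The ratio of Itgb5 to Itgb1, both beta subunits and so not partners, set Model apart from both other groups. Itgb5 to Itgb1 had a log2 ratio of -1.95 to -1.0 in Control and -0.17 to 0.83 in Model, without overlap. In LIPUS it was -2.33 to -0.54, below every Model library and overlapping Control. Another ratio of beta subunits, Itgb2 to Itgb1, did not set Model apart. It was -6.55 to -5.84 in Control, -5.89 to -0.35 in Model and -5.42 to -1.86 in LIPUS, which lay above Control. Itgav to Itgb1 was -3.97 to -3.65 in Control and -3.46 to -1.80 in Model, also apart, while LIPUS at -4.90 to -2.45 overlapped both. Lama4 to Lama2 was 0.70 to 1.31 in Control and 2.46 to 3.51 in Model; in LIPUS it was 2.12 to 3.09 in 4 libraries and -0.56 in library 10.

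**Figure D4:**
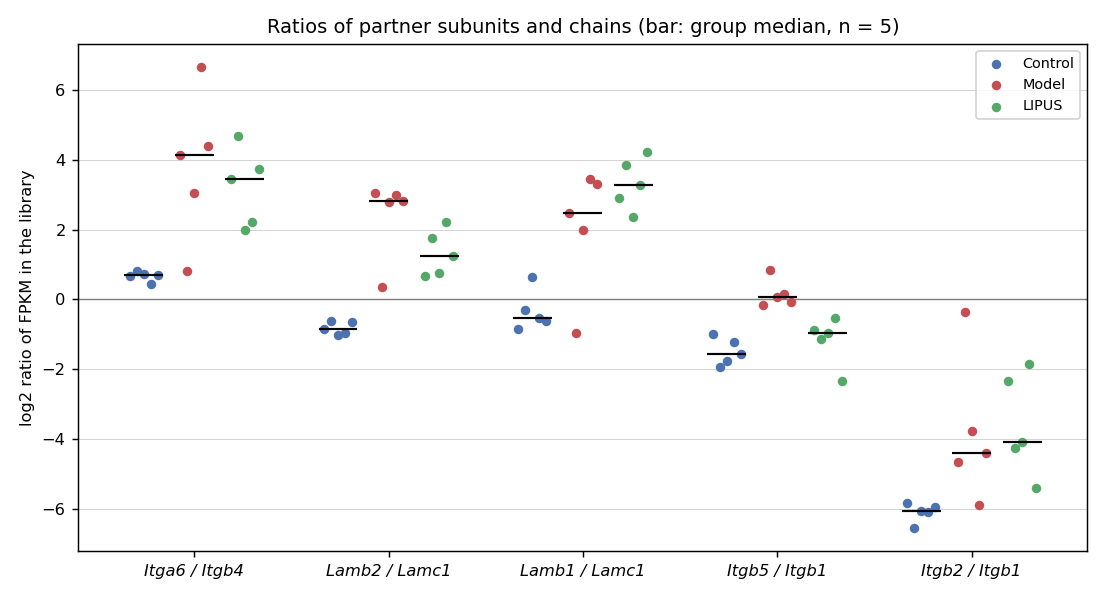
Log2 ratio of FPKM between subunits or chains within each library, by group, with bars at the group median (n = 5). Pairs of beta subunits are not partners, and Itgb2 to Itgb1 overlaps between Control and Model. Itga6 to Itgb4 and both beta to gamma1 laminin ratios sit above Control in all LIPUS libraries and in at least 4 of 5 Model libraries, and Itgb5 to Itgb1 is higher in every Model library than in any Control or LIPUS library.

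Among the 9 leukocyte and platelet genes 4 were tested, of which 1 rose and 1 fell in Model. Itgae, the alphaE subunit (CD103) of lymphocytes that reside among epithelial cells, whose ligand is E-cadherin, stood at 1.91, 1.78, 1.38, 1.75 and 1.75 scaled FPKM in Control. Model libraries were at 3.0, 3.09, 3.84, 5.22 and 3.82, all above Control, and LIPUS libraries at 4.38, 1.66, 2.54, 3.29 and 4.93, of which library 7 lay within the Control range. The log2 change to Model was 1.08 (SE 0.28, adjusted p = 0.00854). As deposited it was 0.33 (0.329), and the call was also lost with scaling to nuclear-encoded FPKM (0.169) and with the ventral to dorsolateral ratio (0.0560). From Control to LIPUS the scaled change of 0.84 (adjusted p = 0.0414) turned to -0.52 as deposited (adjusted p = 0.0867). Itgb7, the beta partner of Itgae, was too low to be tested and showed no such rise. It stood at 0.294 ± 0.0550 in Control, 0.114 ± 0.178 in Model and 0.244 ± 0.373 in LIPUS. No Itgb7 read was found in 3 Model and 3 LIPUS libraries.

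Itgal, the alpha subunit of LFA-1 on T cells and other leukocytes, stood at 0.540, 0.673, 0.800, 0.749 and 0.313 scaled FPKM in Control. It was at 0.411, 0.0408, 0.115, 0.396 and 0 in Model, which overlapped Control, and the log2 change was -1.53 (SE 0.53, adjusted p = 0.0342). That call was lost on leaving out any of 7 libraries (Control 6, 7, 8 or 9, Model 7, 8 or 10; adjusted p of 0.0571 to 0.0915). In LIPUS it stood at 0.311, 0.849, 0.770, 1.45 and 1.25. Itgb2, the beta2 subunit that Itgal and Itgam need at the cell surface, was at 1.08, 0.990, 1.35, 1.06 and 1.25 in Control and at 1.67, 3.0, 2.11, 0.547 and 1.58 in Model. The Model libraries lay on both sides of Control, and the log2 change of 0.43 (SE 0.54) did not pass (adjusted p = 0.569). Its LIPUS values of 5.53, 1.62, 1.72, 12.4 and 1.73 were all above Control, with a log2 change from Control of 1.42 (SE 0.54, adjusted p = 0.0668; 0.09 as deposited). That p was 0.0490 without Model library 7.

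From Model to LIPUS, 2 members rose and 0 fell. Over all tested genes 2.60% were called higher and 1.43% lower, and the comparison shares its Model samples with the one above. Itgam, the alpha subunit of the macrophage and neutrophil receptor Mac-1, stood at 0.304, 0.832, 0.901, 0.402 and 0.444 scaled FPKM in Control. It was at 0.210, 0.578, 0.228, 0.0275 and 0.229 in Model and at 1.06, 0.409, 1.47, 1.94 and 3.44 in LIPUS. After scaling 4 of 5 LIPUS libraries exceeded all Model and Control libraries. As deposited the highest LIPUS library, at 0.750, lay below the highest Control library, at 0.959. The log2 change was 2.23 (SE 0.54, adjusted p = 0.0369; 1.38 as deposited, adjusted p = 0.0430), and Itgal rose by 1.97 (SE 0.53, adjusted p = 0.0491; 1.17 as deposited, adjusted p = 0.0759). Neither gene was apart between the groups, while 1.63% of all tested genes were apart and higher. Both calls were fragile: with only the Model and LIPUS libraries in the fit the adjusted p was 0.179 for Itgam and 0.213 for Itgal, and 1 of 12490 genes was called at all. Itgam lost its call on leaving out any of 13 libraries, Model 7 and LIPUS 7 being the exceptions, with adjusted p of up to 0.0976. Itgal lost its call on leaving out any of 12 libraries, all but Model 6, Model 7 and LIPUS 6, with adjusted p of up to 0.125.

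Some leukocyte and macrophage markers were higher in LIPUS beside them. From Model to LIPUS 2 of 5 general leukocyte markers rose, Ptprc by 2.08 and Cd53 by 1.99 on the log2 scale, and 3 of 5 macrophage markers, Csf1r by 2.59, Cd68 by 2.10 and C1qa by 1.62. These markers were not followed through the alternatives. Summed scaled FPKM of the macrophage list ran from 26.6 to 36.9 in Control, 36.3 to 83.7 in Model and 88.2 to 245 in LIPUS. That of the leukocyte list ran from 117 to 157, 99.2 to 200 and 128 to 182, with overlap between the groups, and its most abundant gene, Lcp1, had a log2 change of 0.00 from Model to LIPUS. As deposited the leukocyte sums were 58.4 to 135 in Model and 25.3 to 119 in LIPUS. The macrophage sums as deposited were 25.8 to 39.2 in Control, 24.5 to 47.3 in Model and 43.9 to 70.7 in LIPUS. Model and LIPUS thus overlapped in them. From Control to Model, 1 of 5 leukocyte markers fell, Ptprc by 1.12, and 0 rose. Of 5 macrophage markers 1 rose and 1 fell. Of 2 tested T cell markers 1 rose, Cd3g by 2.38, and 0 fell. The T cell list summed to 1.31 to 3.29, 1.15 to 15.2 and 2.50 to 18.9, with Trac not found in the table, and the neutrophil list to 0.536 to 2.51, 0.767 to 9.52 and 1.93 to 7.74, with Cxcr2 at 0 in Model and Mpo at 0 in LIPUS. The platelet list, 3 genes of 5 found, summed to 4.71 to 9.86, 11.7 to 22.7 and 13.5 to 142, with Gp9 at 0 in Model and LIPUS. The B and plasma cell list reached at most 2.50 in any library. The part of these cells in the levels of Itgam, Itgal, Itgae and Itgb2 was not tested.

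None of the tested epithelial, stromal or widely expressed members was called from Model to LIPUS, and their median log2 changes were -0.13, -0.65 and 0.31. At an unadjusted p under 0.05 limma also gave 0 of them in either direction, and limma-voom on recovered reads called 0 of the 26 members higher or lower. For Lamc1 the change was 0.31 (SE 0.36), for Itgb4 0.14 (SE 0.50), for Lama2 0.17 (SE 0.52) and for Lama5 -0.42 (SE 0.49). Leaving out Model library 7 gave -0.06, -0.01, -0.14 and -0.69 for these, and -0.15 in place of 0.39 for Itga3. Itgb1 and Lamb1 had changes of 0.81 (SE 0.51) and 1.51 (SE 0.90), with adjusted p of 0.332 and 0.301, and were called higher with the ventral to dorsolateral ratio as a covariate (0.00723 and 0.0130). Their changes were 0.18 (0.611) and 0.45 (0.514) with that library left out. Model library 7 decided the count of lower members. Without it 7 were called lower in LIPUS than in Model (Itga1, Itga6, Itgav, Itgb5, Itgb6, Lama4 and Lamb2, log2 changes of -1.81 to -0.98) beside Itgal and Itgam as higher, against 16.8% lower and 14.9% higher over all tested genes.

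From Control to LIPUS, 11 members were lower and 1, Itgae, higher, against 13.6% and 11.5% of all tested genes. The median log2 change of the 26 was -1.34, against -0.17 over all. Stromal genes made up 7 of the 11: Lama2 (-3.37), Itga8 (-2.94), Itga1 (-2.72), Lama4 (-2.52), Itga7 (-2.52), Itga5 (-2.13) and Itga11 (-1.78) of 9 tested. The epithelial genes were Lama5 (-3.79), Itgb4 (-3.22) and Itgb8 (-1.99), and Lamc1 (-3.38) was the widely expressed one, all as log2 changes of scaled FPKM. The call of Itgae was lost on leaving out any of 10 libraries and in 17 of 28 alternatives in all, and its direction turned as deposited. That of Itga11 was lost on leaving out any of 7 libraries (every Control library, LIPUS 6 or LIPUS 7), after quantile normalization (adjusted p = 0.682), with a pseudocount of 0.01 (0.102) and with the replicate block (0.0540). That of Itga7 was lost on leaving out any of 4 libraries (Control 9, LIPUS 6, 7 or 8) and after quantile normalization (0.0696), and that of Itga1 with limma-voom (0.0597). The 4 tested leukocyte genes had a median change of 1.02, which turned to -0.30 as deposited. With no filter on low values the median over all 9 leukocyte and platelet genes was 0.04. Without Model library 7, which enters the spread, 17 members were lower, against 19.3% of all tested genes, the added ones being Itga6, Itgav, Itgb1, Itgb5, Lamb2 and Lamc3. As deposited the count was 21, against 74.4% of all tested genes.

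The genes that work with integrins and laminins were followed by lists. Of 13 tested basement membrane partners 11 fell from Control to Model and 0 rose, with a median log2 change of -3.62. Among them were the type IV collagen chains Col4a2, from 19.4 ± 4.34 to 0.575 ± 0.309 scaled FPKM (log2 change -4.99, adjusted p = 1.23e-05), and Col4a5, from 13.2 ± 3.11 to 0.528 ± 0.354 (-4.62, adjusted p = 1.34e-05). Nid1, nidogen-1, which links laminin to type IV collagen, went from 26.3 ± 4.89 to 2.34 ± 1.09 (-3.62, adjusted p = 3.89e-05). From Model to LIPUS limma called 0 of these 13, with 1 higher at an unadjusted p under 0.05.

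Of 24 tested adaptors and focal adhesion genes 11 fell and 0 rose in Model, with a median of -0.72. Tln1, talin-1, which binds beta tails and turns integrins on, had a log2 change of -1.77 and the kindlin Fermt2 of -0.91, both called. The focal adhesion genes Tns1 and Flna, also called, had changes of -2.30 and -2.35. From Model to LIPUS 1 gene of this list passed, Lims1, encoding the ILK partner PINCH-1, which rose by 1.34 (adjusted p = 0.0448). That call was not followed through the alternatives, where calls from Model to LIPUS were fragile. Of the 4 hemidesmosome partners Plec, plectin, which joins beta4 to keratin filaments, fell in Model, from 5.13 ± 0.590 to 1.05 ± 0.356 (log2 change -2.25, adjusted p = 4.21e-04). Col17a1, Dst and Cd151 had changes of -1.67, -1.04 and 0.59 and did not pass (0.0509, 0.197 and 0.507).

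Of 14 tested integrin ligands other than laminins 5 fell and 0 rose in Model: Postn, Fbn1, Fn1, Thbs2 and Tnc. Postn, periostin, went from 24.4 ± 1.63 to 2.22 ± 0.484 scaled FPKM and Fn1, fibronectin, from 12.5 ± 2.37 to 1.79 ± 1.03. From Model to LIPUS limma called 0 of this list, with 2 higher and 1 lower at an unadjusted p under 0.05. Among 6 other laminin receptors the syndecan Sdc2 fell by 1.98 on the log2 scale. Rpsa, once named the laminin receptor and a protein of the small ribosomal subunit, rose from 686 ± 88.4 to 3140 ± 860 (log2 change 2.15, adjusted p = 2.90e-05). The lists were chosen with earlier results of these data known, and their counts stand beside the 19.8% and 15.1% called lower and higher over all tested genes.

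The genes most like Itgb4 in pattern, by Spearman correlation of scaled FPKM over the 15 libraries, were Mertk (0.91), Pex14 (0.90) and Mc5r (0.90). Mertk, a receptor tyrosine kinase, stood at 1.72 ± 0.622 in Control, 0.245 ± 0.291 in Model and 0.246 ± 0.369 in LIPUS. For Itgb2 they were Ifrd2 (0.92), Igsf7 (0.91) and Polr2j (0.91). Igsf7 stood at 1.10 ± 0.537, 6.86 ± 7.84 and 14.4 ± 8.35 in the 3 groups. These correlations share libraries and scaling and describe likeness only.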

How the data were processed

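Prostate RNA-seq of 15 samples was used, 5 a group. Per the labels' protocols, TRIzol was used for RNA and a VAHTS Universal V5 kit for libraries. The authors deposited FPKM for 22436 genes. The submitters' processing notes name fastp, HISAT2, SAMtools, HTSeq, R 3.2.0, DESeq2 and build rn6, with no role or order, and strandedness is not given in the sources used here. Whole reads recovered from FPKM (all 22436 genes, within 0.001 of a whole number) served for depth and for a limma-voom alternative.

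FPKM was divided by median-of-ratios factors (10313 genes above 0 everywhere) and fitted as log2(scaled FPKM + 0.1) with limma 3.58.1 in R 4.3.3: all libraries in 1 fit, group means, empirical Bayes with an intensity trend, two-sided, Benjamini-Hochberg over 12490 genes above 0.5 FPKM in at least 5 libraries. Fold changes are on this scale and understate changes of low genes. The procedure was tested on simulated data. No 2 libraries of a group agreed within sampling noise (lowest chi-square per degree of freedom 75.1).

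Members and lists were chosen with earlier results of these data known. All 37 members enter the counts, and the values of 1 of them are not reported here. Values by sample are given for Itgb1, Itgb2, Itgb4, Itga6 and Lamc1, and for the members of each class with the smallest p among those called at a log2 change of 1 or more (up to 5 from Control to Model, up to 3 from Model to LIPUS). Partner lists name up to 4 genes with the smallest p. Of the class list, Itgb2l was not found in the table, and Lama1 was not classed. There were 13 planned kinds of alternative, and leaving out Model 7 and LIPUS 10 together was added after seeing the data.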

Additional observations from a re-analysis of the deposited data

Results flagged for a closer look

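Among 78 groups of 5 libraries (26 tested genes in 3 groups), 9 held a library far from the other 4 in scaled FPKM by a gap test that flags about 1 group in 20 by chance. No Control library was among them.

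In Model library 7, Itgb5 was 6.80 against 30.1 to 37.9 in the other 4, Lamb2 was 0.567 against 12.2 to 15.5, and Lamc1 was 0.442 against 1.53 to 1.94. In Model library 6, Itga8 was 0.0594 and the other 4 held no read.

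In LIPUS library 9, Itgb5 was 31.0 against 14.1 to 15.3, Lamc3 was 0.885 against at most 0.240, and Itga8 was 0.0808 where the other 4 held no read. In LIPUS library 10, Lama2 was 2.01 against 0.180 to 0.424, and Lamb1 was 49.3 against 7.44 to 18.7. The scaling factor of this library, 0.1793, was the lowest of the 15, which raises its scaled values the most. As deposited its Lamb1 was 8.83, within the LIPUS range of 3.05 to 9.28. Its Lama2 was 0.361 as deposited, still the highest of the group.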

How the results depend on the processing

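Counts of calls moved with the scaling. The calls over all tested genes from Control to Model, 1891 higher and 2471 lower after scaling, were 368 and 5382 as deposited, 661 and 4024 with nuclear-encoded scaling, and 2527 and 2121 after quantile normalization. As deposited, 1820 genes were called from Model to LIPUS in place of 504 and 9415 from Control to LIPUS in place of 3132. Members then counted 0 higher and 19 lower (Control to Model), 1 higher and 1 lower (Model to LIPUS), and 0 higher and 21 lower (Control to LIPUS). Nuclear-encoded scaling gave 258 genes from Model to LIPUS, and 0 higher members in both comparisons with Control. Quantile normalization gave 2, 0 and 4 higher members in the order above. Itgal from Control to Model turned to 0.03 under it, and Itgae from Control to LIPUS to -0.52 as deposited. The cause was not tested.

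From Model to LIPUS, the filter of above 1 FPKM in at least 10 libraries left neither of the 2 higher members to test. Their count became 0 with a pseudocount of 0.01, no filter, only the 2 groups compared or limma-voom, and 1 with array weights. Genes called there were 262 with no filter, 1 with only the 2 groups, 81 by limma-voom and 2453 with array weights. From Control to LIPUS, higher members were 0 with no filter, only the 2 groups or limma-voom, and 2 with the lobe ratio. The stricter filter leaves 8 members and gave 2 lower from Control to Model and 1 from Control to LIPUS. Of all 8630 genes it leaves, 1297 and 836 were lower. With the lobe ratio the lower members were 20 and 19, with 0 higher from Control to Model. Of all 12490 tested genes, 2497 and 2550 were then lower. With only the 2 groups, 17 members were lower from Control to LIPUS, against 2219 of the 12490 genes. Array weights called 7614 genes from Control to Model. From Model to LIPUS they called 4 members lower, against 1203 of the 12490 genes. Without Model 7 and LIPUS 10 together, 6591 and 4361 genes were called from Control to Model and Model to LIPUS. Lower members were then 8 in the latter and 17 from Control to LIPUS, against 2299 and 2621 of the 12490 genes.

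Leaving out each library in turn gave 3532 to 5792 genes from Control to Model, 103 to 3961 from Model to LIPUS and 2318 to 4223 from Control to LIPUS. Members called lower were 10 to 13, 0 to 7 and 9 to 17, and members called higher 1 to 1, 0 to 2 and 0 to 3. The highest count from Model to LIPUS came without Model 7.

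Same-numbered samples did not deviate together (correlation over 0.1 in 3 of 15 pairs, from -0.418 to 0.238), and 0 samples correlated best with their own number. With the replicate block, 121 genes were called from Model to LIPUS, and the higher members were 0 there and 0 from Control to LIPUS.

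Depth limits the low genes: 3 reads in a gene of 2 kb are 0.0412 to 0.0505 FPKM, and Itga8, Itga11 and Lama5 were at 0 reads in several Model or LIPUS libraries.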
